A study of Mus musculus with 6 samples.

Results

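The 10 genes described here encode cell surface proteins that tune T-cell activation: the costimulatory ligands *Cd80*, *Cd86* and *Icosl*, the receptor *Cd40*, the maturation marker *Cd83*, the inhibitory ligand *Cd274* (PD-L1), *Vsir* (VISTA) and the inhibitory receptors *Pdcd1* (PD-1), *Lag3* and *Havcr2* (TIM-3). They were chosen by symbol from 32285 genes measured by scRNA-Seq, and all 10 were found in each of 4 libraries. The cells were live CD45+ immune cells sorted from pooled ventral midbrains, 3 to 5 midbrains per sample, of male Line 61 mice, which express human α-Syn from the neuronal Thy1 promoter. The mice were 12 to 15 weeks old when the striatum was injected on both sides with PBS, with monomeric α-Syn (monomer) or with preformed α-Syn fibrils (PFF). The PFF mice received the JAK1/2 inhibitor AZD1480 at 25 mg/kg or vehicle (VH, 0.1% DMSO) by daily gavage from week 2 for 4 weeks, and cells were collected at week 6. All groups carry the transgene, and the drug was given only to PFF-injected mice.

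In antigen presentation, a T cell reads peptide on MHC through its receptor and a second signal from B7 family ligands on the presenting cell. CD80 and CD86 bind CD28, which promotes activation, and CTLA-4, which restrains it, while PD-L1 engages PD-1 and ICOSL engages ICOS. Microglia and border macrophages carry several of these ligands, and the receptors are best known on lymphocytes.

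With 1 library per condition, a difference between libraries and one between conditions cannot be told apart. The libraries held 13813 to 34828 barcodes and 99658216 to 116440449 UMIs, and 13021 to 34436 cells passed the filters. Cells of PFF + VH were shallower, with a median of 2306 UMIs against 6616 to 7028 in the other libraries. Pairs of libraries shared 45 to 151 cell barcodes, at most 1.03% of the smaller library. The PFF + VH and PFF + AZD1480 libraries carry 4 and 5 hashtags (antibody-linked sample barcodes), and each hashtag was taken as 1 replicate, because their numbers equal the replicates in the series design. Cells were placed in classes by UMIs of marker genes that include none of the 10 genes. In the order PBS, monomer, PFF + VH and PFF + AZD1480, there were 12726, 13331, 30693 and 11000 microglia (MG) and 266, 228, 294 and 313 macrophages. Dendritic cells (DCs) numbered 29 to 50 per library, T-cells 98 to 137, NK cells 25 to 119 and B-cells 26 to 52. Between 981 and 2096 cells per library stayed unassigned, and 1.67% to 2.7% of MG lay within 0.1 points of the MG marker limit of 0.8% of UMIs. The share this near the limit was 10.8% to 22% in DCs, 4.89% to 12.2% in macrophages, and at most 16.2% in T-cells and 16.5% in neutrophils.

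The genes lie on 8 chromosomes of mm10 (GRCm38, GENCODE annotation). *Cd80* (chr16:38455561-38496335) and *Cd86* (chr16:36603869-36666081) share chromosome 16, on the plus and minus strand. *Vsir* (chr10:60346851-60372684) and *Icosl* (chr10:78069302-78083913) are both on the plus strand of chromosome 10, and *Vsir* overlaps *Cdh23* on the other strand. *Cd274* (chr19:29367455-29388095, plus) overlaps the antisense gene model AC119228.1. The remaining genes are *Cd40* (chr2:165055627-165072948, plus), *Cd83* (chr13:43784775-43803132, plus), *Pdcd1* (chr1:94038305-94052553, minus), *Lag3* (chr6:124904361-124911705, minus) and *Havcr2* (chr11:46454935-46481255, plus). RefSeq promoter sequences (GRCm38.p6) were at hand for 6 of the 10 genes. A pair of them is shown, 5′ to 3′ on the gene's strand and ending at the base before the start site, because over all MG *Pdcd1* was lower and *Vsir* higher with AZD1480 than with VH, although within strata of depth *Vsir* passed in 1 of 4, at -0.05 in the shallowest, and *Pdcd1* in 1 of the 3 where it was tested. The *Pdcd1* window is chr1:94052554-94052803 on the minus strand and the *Vsir* window chr10:60346601-60346850 on the plus strand, and capitals mark GAGGAAG, letters bound by the myeloid factor PU.1.
Pdcd1: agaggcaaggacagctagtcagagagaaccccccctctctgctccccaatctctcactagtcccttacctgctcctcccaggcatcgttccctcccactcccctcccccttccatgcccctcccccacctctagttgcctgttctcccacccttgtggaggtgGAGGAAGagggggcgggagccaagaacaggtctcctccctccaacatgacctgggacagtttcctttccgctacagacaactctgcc
Vsir: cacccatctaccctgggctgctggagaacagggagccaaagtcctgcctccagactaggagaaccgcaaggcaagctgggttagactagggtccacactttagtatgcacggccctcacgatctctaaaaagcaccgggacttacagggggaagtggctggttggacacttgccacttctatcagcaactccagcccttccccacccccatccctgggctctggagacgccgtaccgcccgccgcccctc
On either strand, GAGGAAG occurs in 10.6% of the 32851 promoter windows of this length and in 2 of the 6 members with a sequence, *Pdcd1* and *Havcr2*. The letters TTCNNNGAA, bound by STAT factors, occur in 7.02% of the windows and in 0 of the 6.

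In the CD45+ cells of the midbrain, most transcripts of all 10 genes came from MG, which were 84.5% to 89.1% of the cells kept. The share of a gene's UMIs that lay in MG ranged from 78.3% for *Cd40* to 96.8% for *Lag3*, both in monomer. This included the receptors known from T-cells: MG held 90.4% to 92.5% of *Pdcd1* UMIs, and T-cells held 0.36% to 4.07%. The MG share of all UMIs is not set beside these shares, so they show no enrichment of a gene in MG. Per UMI of the class, *Pdcd1* in T-cells was at 114% to 672% of its MG level. Levels below are CPM, the UMIs of a gene per 1000000 UMIs of all cells of a class, with exact Poisson 95% intervals in the plots that cover counting error only.

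*Cd86*, the main constitutive B7 ligand of myeloid cells, had 489, 508, 507 and 661 CPM in the MG of PBS, monomer, PFF + VH and PFF + AZD1480. In macrophages it had 877, 937, 948 and 1380 CPM, and in DCs 662, 913, 778 and 1251 CPM. In each library macrophages and DCs lay above MG, and each of the 3 classes was highest in PFF + AZD1480 over cells of all depths. Among MG of 2000 to under 4000 counts per cell the order turned, with 404, 479, 460 and 361 CPM and PFF + AZD1480 the lowest. T-cells had 34.2 to 109 CPM. Summed MG markers in the DCs stood at 11.4%, 13.3%, 23.3% and 18.2% of their MG level in the same order of libraries. The part of MG transcripts in the DC levels of this and the other genes was not tested.

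*Cd83*, which stabilises CD86 and MHC class II on the surface of activated presenting cells, had 2186, 2305, 2293 and 3086 CPM in MG. The macrophage values were 1470, 1860, 1749 and 2443 CPM, and those of DCs 2332 to 2862 CPM. Again the level of each class was highest in PFF + AZD1480 over all depths, although in MG of 2000 to under 4000 counts that library was the lowest (1373 CPM), and macrophages were below the MG of their library in all 4. B-cells, which upregulate CD83 on activation, had 815 to 1661 CPM.

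*Cd80*, the inducible B7 ligand, was at 45, 47.3, 45.7 and 60.7 CPM in MG. DCs had 58.8 to 171 CPM, with the 171 CPM in PFF + AZD1480, and neutrophils 87.4 to 137 CPM. *Icosl*, the ICOS ligand, varied least among the ligands in MG, at 46.7, 48.5, 47.7 and 47.3 CPM, and was close to that in macrophages at 40.8 to 46.9 CPM.

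*Cd40*, the receptor through which T-cell CD40L licenses presenting cells, was at 6.7, 6.51, 7.1 and 8.2 CPM in MG. It was at 54.4 to 111 CPM in B-cells, 14.7 to 68.2 CPM in DCs and 15.6 to 31.6 CPM in macrophages. The B-cell range lay above that of MG and macrophages in all libraries. *Cd274*, the PD-1 ligand, had 51.6, 59.5, 64.6 and 67.7 CPM in MG and 122 to 216 CPM in B-cells, a difference that was not called within hashtags, as given below. Its macrophage level was 6.27 to 15.6 CPM, so that macrophages were the lowest of the 6 classes in every library, while T-cells had 35.2 to 80.2 CPM and NK cells 45.4 to 73.3 CPM.

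*Vsir*, an inhibitory protein of myeloid and naive T-cells, had 793, 818, 601 and 696 CPM in MG. Both PFF libraries were below PBS and monomer. Macrophages had 258 to 297 CPM, neutrophils 279 to 408 CPM and T-cells 135 to 152 CPM, so that T-cells were below macrophages in each library.

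*Pdcd1*, the PD-1 receptor, had 15 (95% interval 14.2 to 15.8), 14.9 (14.1 to 15.7), 33.6 (32.4 to 34.7) and 22.4 (21.3 to 23.5) CPM in MG. PBS and monomer overlapped, PFF + VH was the highest and PFF + AZD1480 lay between. T-cells had 68.3, 100, 38.1 and 79.2 CPM, above MG in all libraries but with wide intervals in PFF + VH. NK cells had 49.4, 23.8, 31.1 and 175 CPM, and 12 of the 30 UMIs behind the 175 CPM came from 3 cells of 1 hashtag. Macrophages had 14 *Pdcd1* UMIs in 1101 cells of the 4 libraries.

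*Lag3*, a receptor for MHC class II, was also highest in PFF + VH and next in PFF + AZD1480 in MG, at 120, 128, 179 and 144 CPM, with monomer above PBS. Macrophages had 9.76, 6.16, 41.6 and 18.6 CPM and T-cells 7.88, 20, 46.9 and 28.6 CPM, in both cases highest in PFF + VH. MG markers in macrophages stood at 17.8%, 19.6%, 24.4% and 21.6% of their MG level and *Lag3* at 8.14%, 4.79%, 23.2% and 12.9% of its own, below the markers in each library, and the part of MG transcripts in the macrophage values was not tested. *Havcr2*, the TIM-3 receptor and a known microglial gene, stayed within 212 to 221 CPM in the MG of the 4 libraries and was at 30.7 to 61.4 CPM in macrophages and 19.7 to 46.9 CPM in T-cells.

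Among the other cells, neutrophils had 145, 66.8, 885 and 1798 CPM of *Cd83* and 50.6, 33.4, 252 and 551 CPM of *Cd86* in the 4 libraries, higher in both PFF libraries than in PBS and monomer. MG markers summed to 5.67%, 5%, 20.1% and 14.1% of their MG level in these neutrophils, *Cd83* was at 6.61%, 2.9%, 38.6% and 58.2% of its own, and the part of MG transcripts in the difference was not tested. The unassigned cells, with 5463 to 5926 CPM of MG markers against 19220 to 22470 CPM in MG, had 3072 to 3994 CPM of *Cd83* and 840 to 1063 CPM of *Cd86*.

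**Figure D1:**
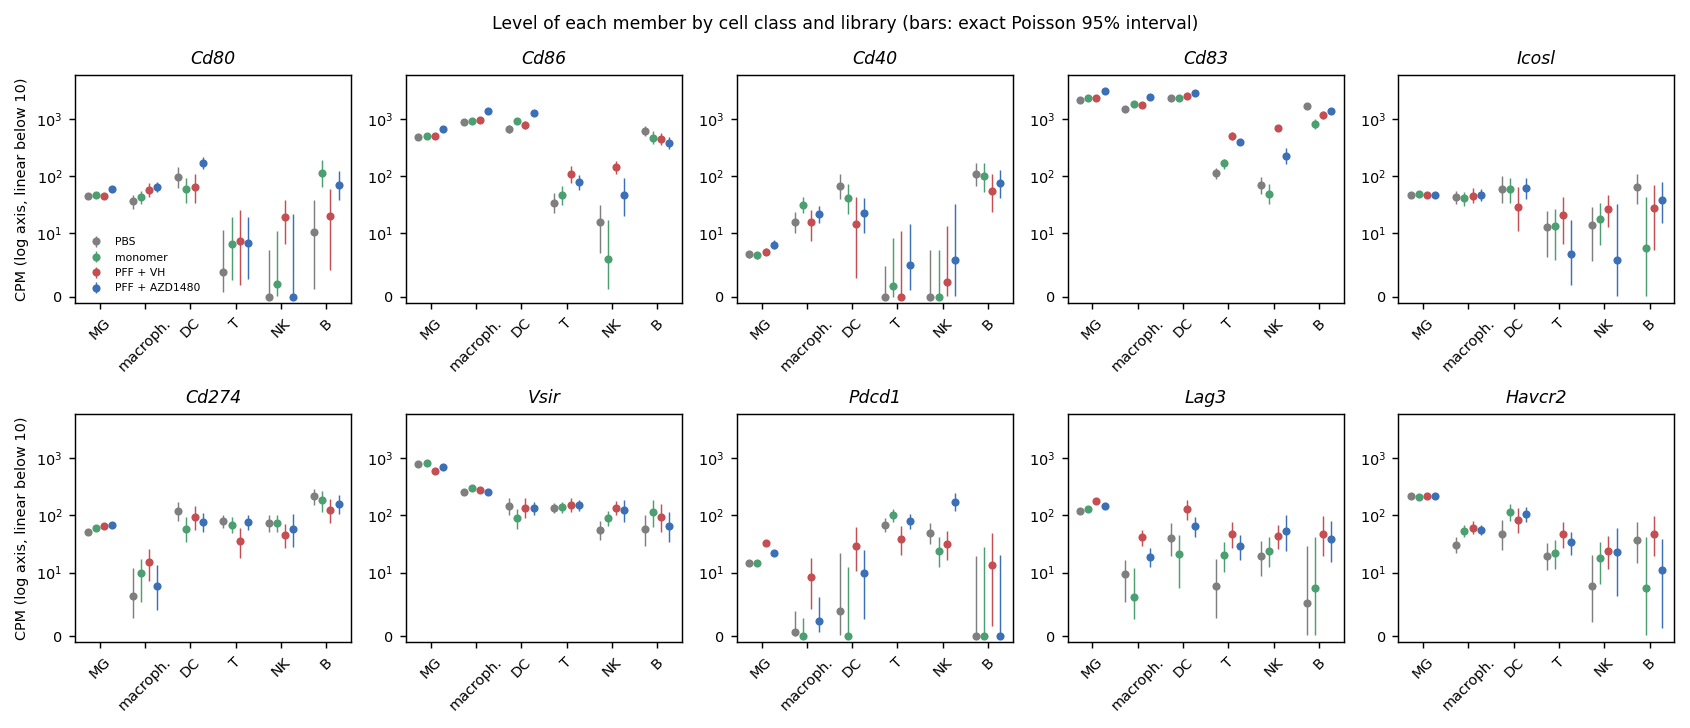
Level of each gene in CPM (y axis, logarithmic and linear below 10) in 6 cell classes (x axis: MG, macrophages, dendritic cells, T, NK and B-cells) of the 4 libraries (colours), with exact Poisson 95% intervals. *Pdcd1* is at 0 to 9.37 CPM in macrophages and 14.9 to 33.6 CPM in MG, while *Cd86* is higher in macrophages than in MG in each library.

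After each cell was thinned to 1000 UMIs, the share of MG with a *Pdcd1* UMI was 1.47%, 1.45%, 3.24% and 2.01%, and the share with a *Lag3* UMI 9.8%, 10.9%, 15.2% and 12.3%. These shares keep the order of the CPM. Unthinned, they were 7.91%, 7.88%, 8.57% and 10.8% for *Pdcd1* and 45.5%, 46.6%, 34.3% and 48.2% for *Lag3*, with median depths of 7364.5, 6948, 2359 and 6951 UMIs, and in another order than the thinned shares. Thinning left out 452, 737, 4520 and 325 MG with fewer UMIs. In neutrophils, which should lack both receptors, 0 of 63, 0 of 19, 0 of 48 and 1 of 76 thinned cells had a *Pdcd1* UMI, at median depths of 3647, 3407, 2112.5 and 5498.5 UMIs before thinning. The 95% intervals of these neutrophil shares reach 5.69%, 17.6%, 7.4% and 7.11%, and that for *Lag3* in PFF + VH, where 3 of 48 cells had a UMI, reaches 17.2%. The numbers of neutrophils are therefore too small to separate them from MG for *Pdcd1*. For *Cd86* the thinned shares of MG were 32.4%, 34.7%, 35.1% and 38.4%, with 2.24%, 4.08%, 10.3% and 8.16% of T-cells, at median depths of 5307.5, 6095, 2947 and 5982 UMIs in those T-cells. For *Vsir* they were 54.0%, 54.7%, 44.5% and 49.0%, with 4.08%, 7.69%, 12.2% and 8.82% of B-cells, at median depths of 3490, 4245.5, 2694 and 5066.5 UMIs. For *Cd83* the thinned shares of MG were 64.3%, 67.5%, 76.4% and 75.4%. By hashtag they were 71.4%, 79.2%, 77.3% and 71.5% with VH and 76.9%, 77.7%, 75.2%, 73.0% and 75.0% with AZD1480, so that the groups overlapped where those of its CPM did not, and no order is read from them.

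T and NK cells also held transcripts of the MG markers themselves, and more in the PFF libraries. Summed MG markers in T-cells stood at 4.74%, 5.21%, 20.7% and 11.2% of their level in MG in PBS, monomer, PFF + VH and PFF + AZD1480, and in NK cells at 3.18%, 3.65%, 16.3% and 8.37%. *Cd83* in T-cells moved along with them, at 5.17%, 7.24%, 22.1% and 12.7% of its MG level, and *Cd86* at 6.99%, 9.2%, 21.4% and 12%. *Havcr2* was at 8.97%, 10.2%, 21.7% and 15.2% in the same order, and *Lag3* at 6.58%, 15.6%, 26.2% and 19.8%, highest where the markers were highest. *Pdcd1* was at 456%, 672%, 114% and 354% of its MG level and *Cd274* at 155%, 115%, 54.5% and 112%, both far above the share of the markers. The T-cell levels of *Cd83*, *Cd86* and *Havcr2* were thus at shares of MG similar to or a few points above those of the markers, and *Vsir*, at 17.1%, 17.1%, 25.4% and 21.6%, was above them in each library. In NK cells *Cd83* was at 3.17%, 2.15%, 30.3% and 7.38% of its MG level. The part of MG transcripts in these levels was not tested.

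**Figure D2:**
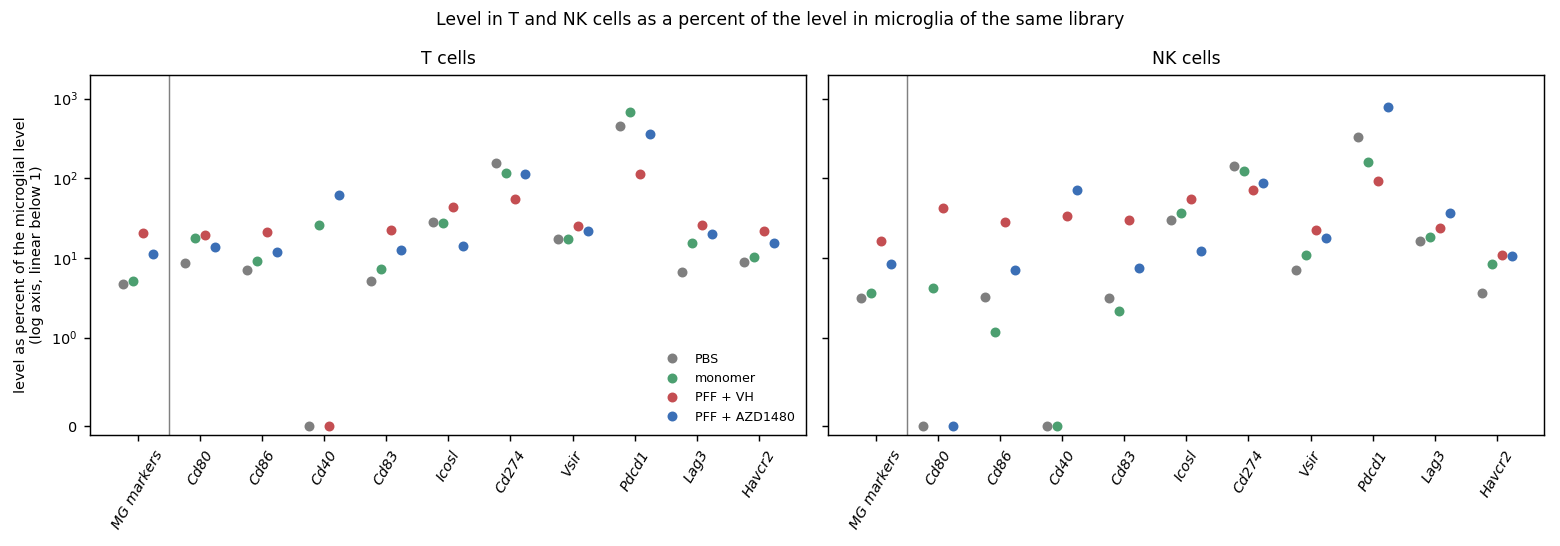
Level of the summed MG markers and of each gene in T-cells (left) and NK cells (right), as a percent of the level in the MG of the same library (y axis, logarithmic and linear below 1), with 1 point per library. *Pdcd1* in T-cells lies at 114% to 672%, while *Cd83* in T-cells lies within a few points of the MG markers in each library and, in NK cells of PFF + VH, at 30.3% against 16.3%.

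Classes were then compared within hashtags, with UMIs summed per hashtag and class and the hashtag as a block (edgeR quasi-likelihood test, Benjamini-Hochberg adjustment over all genes tested). In macrophages against MG, 2 genes were higher and 6 lower over 9 hashtags, where 28.9% of the 10950 genes tested were called, 12.8% higher and 16.1% lower. The median log2 difference was -0.91 over the 10 genes and -0.07 over all genes tested. *Cd86* was higher in macrophages by 0.96 (log2, SE 0.11, adjusted p = 2.73e-11), and *Cd40* by 1.02 (SE 0.40, adjusted p = 0.0499), a call that was lost under 14 alternatives. The largest differences were in *Lag3* at -2.62 (SE 0.20) and *Cd274* at -2.61 (SE 0.28, adjusted p = 8.27e-12). The macrophage values of *Cd274* were 0 to 20.2 CPM over the 9 hashtags and those of MG 57.7 to 81.1 CPM, with no overlap, as for 10.9% of all genes tested. *Pdcd1* was lower by -2.11 (SE 0.41), *Havcr2* by -1.84 (SE 0.16), *Vsir* by -1.32 (SE 0.12) and *Cd83* by -0.50 (SE 0.11). All 3 inhibitory receptors, *Cd274* and *Vsir* were therefore lower in macrophages, and so was the maturation marker *Cd83*. The receptor *Cd40* was higher at the limit, and the 3 costimulatory ligands *Cd80*, *Cd86* and *Icosl* were higher or did not pass. *Cd80*, at 0.14 (SE 0.18), and *Icosl*, at 0.02 (SE 0.19), were not called.

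In T-cells against MG, over 7 hashtags, 8 of the 10 genes were lower and 1 was higher, where 34.1% of 11679 genes tested were called, 23.6% lower and 10.5% higher. The median was -2.77 over the members and -0.43 over all genes tested. *Cd86* differed by -3.21 (SE 0.24), *Cd83* by -3.08 (SE 0.17), *Cd80* by -3.01 (SE 0.56), *Havcr2* by -2.78 (SE 0.30), *Vsir* by -2.76 (SE 0.22), *Lag3* by -2.16 (SE 0.30) and *Icosl* by -1.79 (SE 0.47). *Cd40* had 0 UMIs in the 118 hashtagged T-cells (510962 UMIs). With a floor of 3 counts over these cells, 5.87 CPM, it was at least 1.31-fold lower than the 7.66 CPM in the MG of the same hashtags. Its call was lost with DESeq2 (adjusted p = 0.19), with hashtags centred within cells (0.074), without the block (0.060) and in the hashtags of PFF + AZD1480 only (0.17). *Cd274* did not pass (-0.66, SE 0.32, adjusted p = 0.10).

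*Pdcd1* was higher in T-cells by 0.88 (log2, SE 0.34, adjusted p = 0.032), but the difference rested on hashtag 4 of PFF + AZD1480. Its T-cell values were 0, 16.8, 53.7 and 44.1 CPM in PFF + VH, and 33.2, 10.8 and 220 CPM in hashtags 1, 2 and 4 of PFF + AZD1480. Hashtag 4 held 27 *Pdcd1* UMIs, and without it the difference was -0.42.

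NK cells were compared in the 4 hashtags of PFF + VH, where 6 genes were lower and 0 higher, and 22.9% of 11878 genes were called, 15.2% lower and 7.7% higher. The values of 5 members and of 38.8% of all genes did not overlap between the classes. *Havcr2* differed by -3.40 (SE 0.38), *Vsir* by -2.88 (SE 0.25), *Lag3* by -2.83 (SE 0.37), *Cd86* by -2.55 (SE 0.25) and *Cd83* by -2.23 (SE 0.17). *Cd80* was at the limit, at -1.38 (SE 0.54, adjusted p = 0.048). With MULTIseqDemux the calls of *Cd83* (adjusted p = 0.076), *Cd86* (0.080), *Havcr2* (0.085) and *Cd80* (0.62) were lost, at -3.33, -3.15, -3.52 and -1.11. *Pdcd1* was not called, at -0.79 (SE 0.55, adjusted p = 0.33).

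B-cells could be compared in 3 hashtags, and 5 genes were lower and 0 higher, where 11.9% of 11954 genes were called, 9.15% lower and 2.75% higher. The lower genes were *Havcr2* (-4.37, SE 0.75), *Vsir* (-3.97, SE 0.53), *Lag3* (-2.05, SE 0.57), *Cd83* (-1.69, SE 0.39) and *Cd86* (-1.56, SE 0.42). *Cd40* was at 2.70 (SE 1.04, adjusted p = 0.072) and its B-cell and MG values did not overlap, as for 47.2% of all genes tested. *Cd274* was not called, at 0.42 (SE 0.52, adjusted p = 0.71). These few cells gave 16 to 1013 genes called when 1 hashtag was left out, against 1423 with all 3. All 5 calls were lost without hashtag 4 of PFF + AZD1480 (adjusted p = 0.24 to 0.36), and *Lag3* and *Cd83* also without hashtag 2 of PFF + VH (0.17 and 0.18). *Cd86* was lost without any 1 of the hashtags (adjusted p = 0.11 to 0.36). *Cd86* and *Lag3* were lost with MULTIseqDemux (0.42 and 0.081), at 1000 or more counts per cell (0.13 and 0.056) and with DESeq2 (0.090 and 0.074). All 5 were lost with 1 more marker (0.24 to 0.37). Over all B-cells the level of *Cd86* was 126%, 93%, 88.5% and 58.6% of that in the MG of the same library.

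DCs passed the limit of 10 cells per hashtag in too few hashtags, and were compared at 5 cells, a limit chosen after the data were seen. In the DCs of PFF + VH, summed MG markers were at 4470 CPM and markers of DCs at 1604 CPM. In those of PFF + AZD1480 they were at 3562 and 1780 CPM, and the part of MG transcripts in the DC values was not tested. Over 7 hashtags 3 genes were called, where 13.8% of 11531 genes were. *Vsir* was lower than in MG by -2.68 (SE 0.26), *Havcr2* by -1.5 (SE 0.30) and *Lag3* by -1.01 (SE 0.30, adjusted p = 0.0086). *Cd80* was at 0.80 (SE 0.33, adjusted p = 0.085), *Cd86* at 0.29 (SE 0.20) and *Cd83* at -0.19 (SE 0.17). *Vsir*, *Lag3* and *Havcr2* were thus lower than in MG in each of the 5 classes compared, although their calls in B-cells were lost under alternatives. *Cd83* was called lower in each of these classes except DCs, and its call in B-cells was also lost under alternatives.

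**Figure D3:**
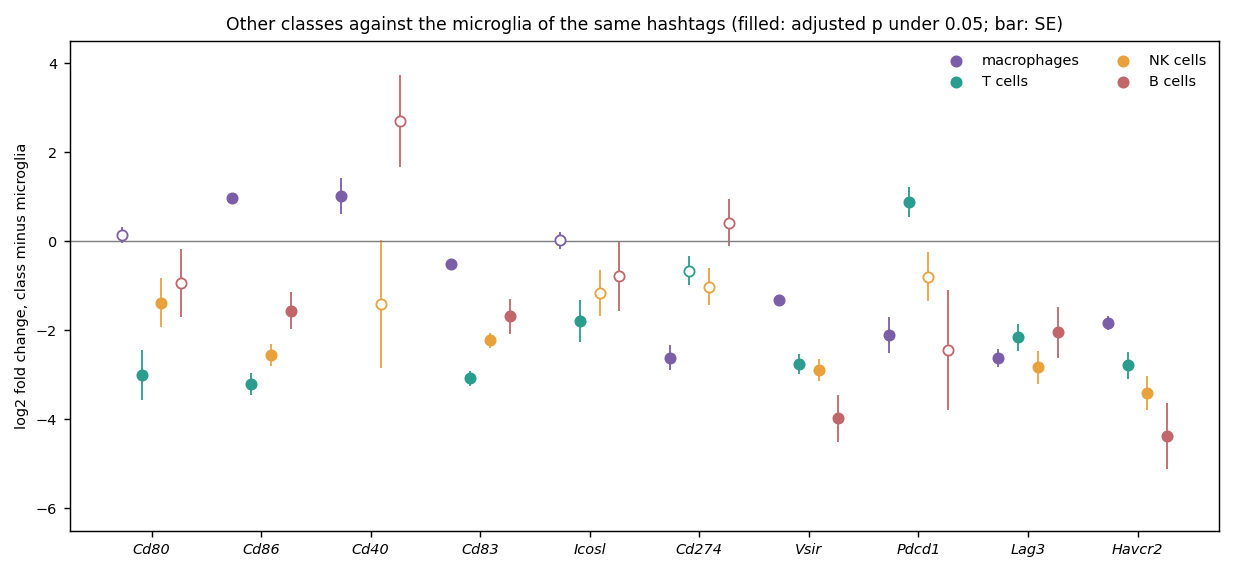
Log2 difference of each gene between macrophages, T, NK or B-cells (colours) and the MG of the same hashtags (y axis), with SE, filled where the adjusted p was under 0.05. *Lag3*, *Havcr2*, *Vsir* and *Cd83* are filled below 0 in all 4 classes, and *Cd40* in T-cells is not drawn because those cells had 0 UMIs.

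The question of AZD1480 treatment was addressed in the MG of the 9 hashtags. All hashtags of a treatment came from 1 library, so the p-values do not cover differences between libraries. Of the 10 genes, *Cd83*, *Cd86* and *Vsir* were higher with AZD1480 than with VH, and *Pdcd1* and *Lag3* were lower. For *Cd83* and *Cd86* the direction differed between strata of counts per cell, which hold unlike parts of the PFF libraries, as given below. From 2000 to under 4000 counts per cell both were lower (-0.52, adjusted p = 0.0017, and -0.35, adjusted p = 0.025). The 5 calls over all cells stand beside 25.9% of all 13592 genes tested called in MG (11.7% higher and 14.2% lower), so that calls were common in this comparison. Values of the groups did not overlap for 5 members, and for 23.2% of all genes tested. The median log2 difference was 0.09 over the members and -0.0010 over all genes tested.

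The levels of *Pdcd1* were 42.1, 34.4, 32.1 and 32.8 CPM in the 4 hashtags of PFF + VH and 25.7, 25.4, 17.7, 20 and 20.4 CPM in the 5 of PFF + AZD1480. All AZD1480 values lay under all VH values, with means of 35.3 ± 4.64 (SD, n = 4) and 21.8 ± 3.54 (SD, n = 5). The log2 difference was -0.73 (SE 0.11, adjusted p = 0.00064). *Lag3* had 173, 210, 169 and 177 CPM with VH and 152, 145, 160, 136 and 112 CPM with AZD1480, and the groups again did not overlap. It differed by -0.42 (SE 0.10, adjusted p = 0.010). Both inhibitory receptors were above the PBS and monomer library levels in every hashtag of VH. With AZD1480, *Pdcd1* was above the PBS and monomer levels in all 5 hashtags and *Lag3* in 4 of 5.

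*Cd83* had 2063, 2535, 2377 and 2226 CPM in the VH hashtags and 3194, 3465, 2999, 2834 and 3244 CPM with AZD1480, where the lowest exceeded the highest of VH, unlike the thinned shares of cells with a UMI. The difference was 0.40 (SE 0.08, adjusted p = 0.0037). *Cd86* had 463, 529, 544 and 503 CPM against 658, 753, 675, 626 and 634 CPM, which gave 0.34 (SE 0.07, adjusted p = 0.0053) without overlap. *Vsir* had 592, 588, 568 and 638 CPM with VH and 675, 661, 688, 737 and 737 CPM with AZD1480. It was higher by 0.18 (SE 0.05, adjusted p = 0.016), and without hashtag 1 of PFF + VH the adjusted p was 0.053. Its values stayed below the 793 and 818 CPM of PBS and monomer in every hashtag.

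*Cd80* had 40.7, 50.4, 52.4 and 43.2 CPM with VH and 55.1, 76.5, 68.7, 50.4 and 57.9 CPM with AZD1480, and the groups overlapped at hashtag 4 of AZD1480. It did not pass (0.35, SE 0.13, adjusted p = 0.059) but did so under 6 of the alternatives. *Icosl* at 0.01 (SE 0.08), *Havcr2* at -0.03 (SE 0.04), *Cd274* at -0.05 (SE 0.10) and *Cd40* at 0.19 (SE 0.23) were not called. Their hashtag values ranged from 40.3 to 53.8 CPM for *Icosl*, 206 to 233 CPM for *Havcr2*, 57.7 to 81.1 CPM for *Cd274* and 4.7 to 10.5 CPM for *Cd40*.

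**Figure D4:**
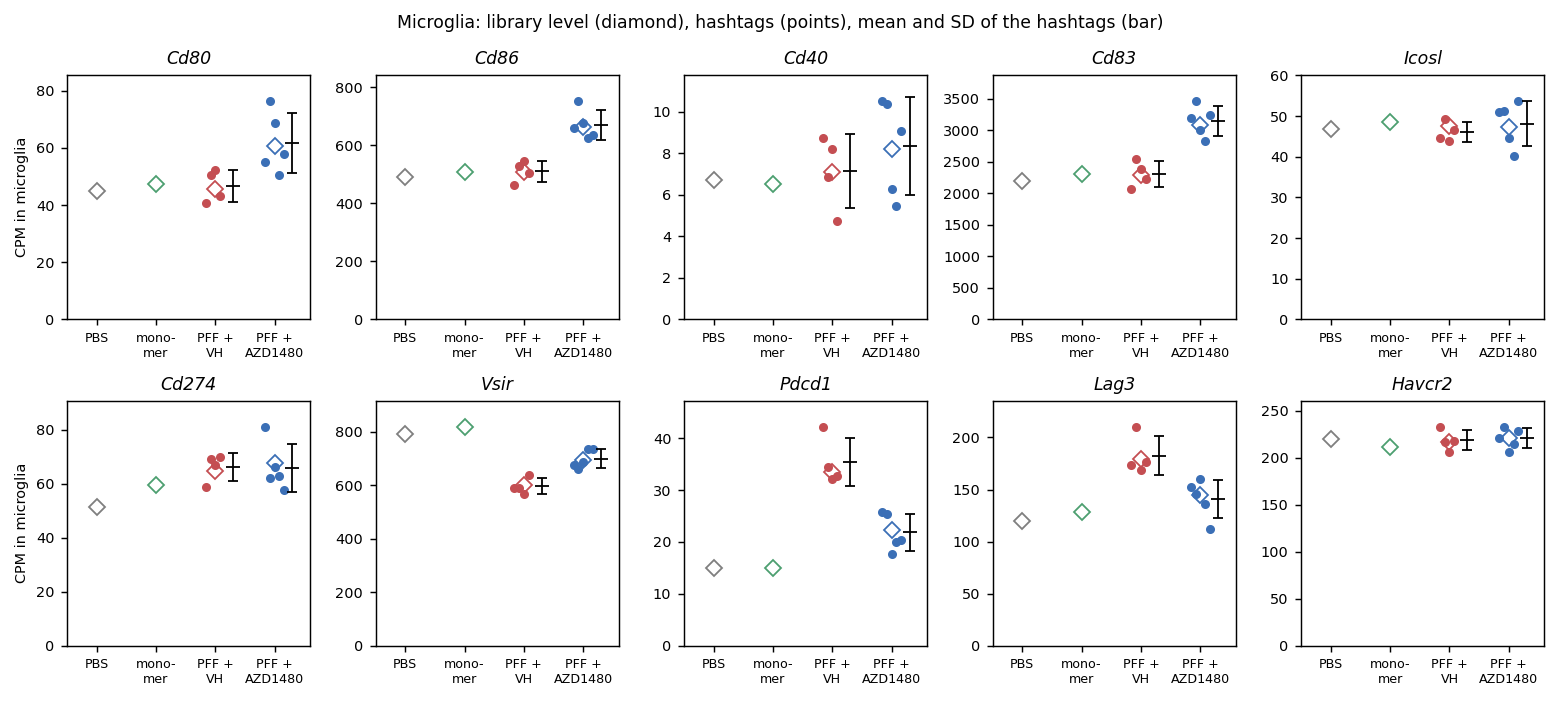
Level of each gene in MG in CPM (y axis, from 0) by library (x axis). Diamonds are the library, points the 4 and 5 hashtags, and black bars the mean and SD of the hashtags. The points of *Pdcd1* and *Lag3* are lower with AZD1480 and those of *Cd83*, *Cd86* and *Vsir* higher, without overlap.

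Counts per cell differed between the libraries, and each treatment was 1 library. MG had median depths of 2651 to 3260 UMIs in the VH hashtags and 6446.5 to 7350 UMIs in those of AZD1480, and *Gm42418*, which overlaps rRNA, had 12280 CPM in the MG of PFF + VH against 6403 to 8532 CPM in the other libraries. The comparison was therefore repeated within strata of counts per cell, chosen after the data were seen. In 4 strata that start at 1000, 2000, 4000 and 8000 counts per cell and end at 15000, 18.5%, 12%, 18.3% and 7.3% of the genes tested were called, and 5, 9, 10 and 10 of the members passed the filter. Over all MG, with or without a hashtag, these strata held 8323, 9846, 6148 and 1856 cells of PFF + VH. The PFF + AZD1480 library had 591, 1367, 4682 and 4035. The strata thus held unlike parts of the libraries, and whether a direction follows depth itself was not tested. *Lag3* was lower with AZD1480 in each of the 4 strata, by -0.78, -0.35, -0.56 and -0.36, each with an adjusted p under the threshold of 0.05. *Pdcd1* was below the filter on low counts in the shallowest stratum and differed by -0.39 (adjusted p = 0.21), -0.95 (adjusted p = 0.0003) and -0.53 (adjusted p = 0.051) in the others. Both receptors kept their direction wherever they could be tested.

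*Cd83* and *Cd86* did not keep theirs. *Cd83* differed by -0.10 (adjusted p = 0.67), -0.52 (adjusted p = 0.0017), 0.15 (adjusted p = 0.23) and 0.32 (adjusted p = 0.015) from the shallowest to the deepest stratum. *Cd86* differed by -0.015, -0.35 (adjusted p = 0.025), 0.07 and 0.37 (adjusted p = 0.0094). Both genes were thus lower with AZD1480 in cells from 2000 to under 4000 counts and higher in cells from 8000 counts. *Vsir* passed only in cells from 4000 to under 8000 counts (0.31, adjusted p = 0.0013), at -0.05, 0.10 and 0.18 in the other strata. *Cd274*, which was not called over all cells, was below the filter in the shallowest stratum, lower by -1.03 (adjusted p = 0.0002) and -0.39 (adjusted p = 0.043) in the middle strata and at 0.18 (adjusted p = 0.40) in the deepest.

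The level of *Cd83* itself varied with depth in every library. In bins that start at 500, 1000, 2000, 4000 and 8000 counts per cell, it was 2909, 2286, 1483, 1772 and 2486 CPM in PBS, 2968, 2604, 1772, 1972 and 2574 CPM in monomer, 2127, 1949, 2040, 2367 and 2789 CPM in PFF + VH and 3027, 1966, 1373, 2759 and 3509 CPM in PFF + AZD1480. In PBS, monomer and PFF + AZD1480 it was lowest from 2000 to under 4000 counts, and in PFF + VH from 1000 to under 2000. In the same bins *Pdcd1* was 29.7 to 34.6 CPM in PFF + VH and 7.11 to 24.3 CPM in the other 3 libraries. The values did not overlap at any depth, but under 2000 counts those of the other 3 rest on 3 to 11 UMIs per bin. *Lag3* was highest in PFF + VH in each bin from 1000 counts. Under 1000 counts it was 151 CPM there and 158 CPM in PFF + AZD1480. From 1000 to under 2000 counts PFF + AZD1480 (96.2 CPM) was below monomer (98.2 CPM).

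**Figure D5:**
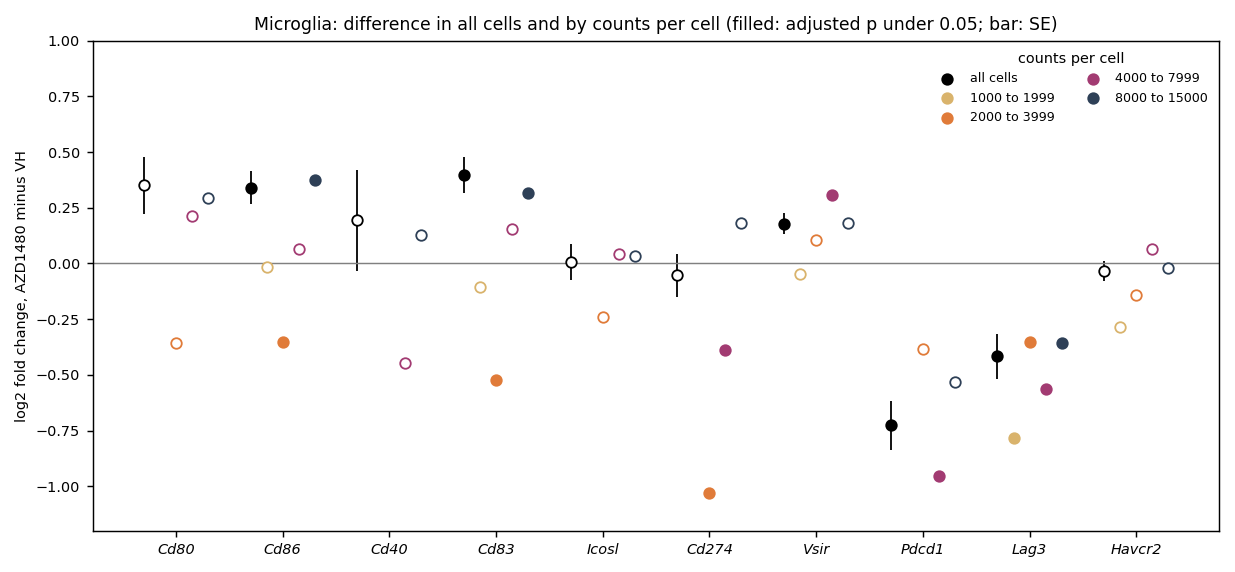
Log2 difference in MG between AZD1480 and VH (y axis) for each gene (x axis) in all cells (black, with SE) and in 4 strata of counts per cell (colours), filled where the adjusted p was under 0.05. *Lag3* lies below 0 and is filled in all strata, while *Cd83* and *Cd86* are filled below 0 from 2000 to under 4000 counts and above 0 from 8000 counts.

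In macrophages, 12 to 77 cells per hashtag, 5 of the 10 genes passed the filter on low counts and 0 were called by edgeR, where 0.155% of 3217 genes tested were called (0.0311% higher and 0.124% lower). The unadjusted p by edgeR was 0.00055 for *Cd86* and 0.026 for *Cd83*. DESeq2, which called 19 genes in this comparison, called *Cd86*. *Cd86* had 721, 1115, 781 and 892 CPM in the VH hashtags and 1343, 1668, 1414, 1220 and 1532 CPM with AZD1480. All AZD1480 values lay above those of VH, and 3.33% of all genes tested had groups that did not overlap, in either direction. Median depths of these macrophages were 2497 to 2839 UMIs in the VH hashtags and 2724 to 5589 UMIs with AZD1480. Strata of counts per cell were not tested in macrophages. The log2 difference was 0.69 (SE 0.16, adjusted p = 0.16), and the adjusted p was 0.012 by DESeq2, 0.028 with no filter on low counts and 0.040 without hashtag 2 of PFF + VH. *Cd83* was at 0.46 (SE 0.19, adjusted p = 0.45) and *Cd80* at 0.19 (SE 0.30). *Havcr2* and *Vsir* were not called, and *Cd274*, *Cd40*, *Icosl*, *Pdcd1* and *Lag3* were below the filter.

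Whether macrophages and MG responded differently was tested directly as a treatment by class term, and 0 of the 10 genes passed, where 0.494% of 11932 genes did. *Cd86* was nearest with *Lag3*, at 0.38 (SE 0.19, unadjusted p = 0.051, adjusted p = 0.64) and -0.92 (SE 0.49, unadjusted p = 0.060, adjusted p = 0.68). In T-cells, 7 hashtags had 10 or more cells, a set chosen after the data were seen, and *Cd83* alone passed the filter. Its values were 1121, 185, 430 and 617 CPM with VH and 149, 484 and 130 CPM with AZD1480, and the difference of -1.17 (SE 0.53, adjusted p = 0.29) did not pass, where 2.27% of 1235 genes did. No treatment test was made in DCs, NK or B-cells, whose hashtags held too few cells.

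A further 36 genes of the same pathways were listed, among them the CD28, CTLA-4 and TNF receptor families, other B7 ligands and the CD47 axis, and at most 5 called genes per comparison are named by the size of their log2 difference. In MG, 20 of them were tested between AZD1480 and VH, and 2 were higher and 5 lower, beside 25.9% of all genes tested. *Cd276* (B7-H3) was higher by 0.78 (SE 0.14). *Cd226*, an activating receptor for nectin family ligands, was lower by -2.08 (SE 0.38) on 17 to 22 UMIs per VH hashtag and 1 to 7 per AZD1480 hashtag, *Lgals3* by -0.85 (SE 0.21), *Lgals9*, which encodes a ligand of TIM-3, by -0.62 (SE 0.05) and *Cd244a* by -0.57 (SE 0.17). In the same MG, summed NK markers were at 21.4 CPM in the VH library against 11.35 CPM in that of AZD1480, and T-cell markers were at 63.15 and 48.5 CPM, while *Cd226* averaged 465 CPM in the NK cells of the VH hashtags against 1.27 CPM in their MG and 0.305 CPM in the MG of the AZD1480 hashtags. The part of lymphocyte transcripts in its difference was not tested. The median difference was -0.15 over the 20 genes and -0.0010 over all genes. None of these pathway genes was compared within strata of counts per cell, where members such as *Cd83* and *Cd86* turned direction. In macrophages 7 of the 36 were tested and 0 called by edgeR, where 0.155% of 3217 genes tested were called.

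The same list was counted between classes. Of 22 genes tested in T-cells, 12 were higher than in MG and 6 lower, where 10.5% of all genes were higher and 23.6% lower. *Cd28* (9.76, SE 0.38), *Cd40lg* (9.0, SE 0.47) and *Icos* (8.59, SE 0.26), which encode the partners of the B7, CD40 and ICOSL proteins, were among the higher genes with *Cd226* (8.42, SE 0.32). *Cd276* was among the lower genes, with 0 UMIs in these T-cells. In NK cells 13 of 22 were higher and 3 lower, against 7.7% and 15.2% of all genes, and the largest differences were in *Cd96* (8.57, SE 0.60), *Cd226* (8.17, SE 0.35), *Cd160* (7.85, SE 0.60), *Tnfrsf18* (7.51, SE 0.50) and *Tnfrsf9* (7.16, SE 0.49), all receptors of lymphocytes. In macrophages 6 of 15 were higher than in MG and 4 lower, against 12.8% and 16.1% of all genes. *Cd28* (6.50, SE 0.46), *Lgals3* (2.07, SE 0.24) and *Cd200r1* (1.35, SE 0.20) were higher, while *Nectin2* (-3.04, SE 0.46) and *Ceacam1*, a TIM-3 ligand (-2.96, SE 0.53), were lower. Summed T-cell markers were at 135.3 and 57.66 CPM in the macrophages of PFF + VH and PFF + AZD1480, against 63.15 and 48.54 CPM in their MG. The part of T-cell transcripts in the *Cd28* difference was not tested. In B-cells 1 of 15 was higher, the inhibitory receptor *Btla* (7.06, SE 0.90), and 3 were lower. These were *Tnfsf9*, the 4-1BB ligand, with 0 UMIs in these B-cells, *Sirpa* (-2.98, SE 0.46), the CD47 receptor of myeloid cells, and *Lgals9* (-1.71, SE 0.56), against 2.75% higher and 9.15% lower over all genes.

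The genes whose levels were most like those of each member were found by Pearson's r of log2(CPM + 10) over 20 points, each a class of a library with at least 50 cells. The points share libraries and come from 7 classes, so the values are a description. *Cd83* and *Cd86* were alike (r = 0.968), *Cd83* being first for *Cd86* and *Cd86* the third for *Cd83*, after *Rasgef1b* (0.979) and *Blnk* (0.97). The first gene was *Cmtm6* for *Vsir* (0.977), *Gpr155* for *Havcr2* (0.966), *Swap70* for *Icosl* (0.963), *Cd300a* for *Cd80* (0.96) and *Serpine2* for *Lag3* (0.95). For *Pdcd1* it was *Pacsin1* (0.944), followed by *Il7r* (0.913). *Cd40* was most like *Kmo* (0.914), and *Cd274* had the lowest first value, with *Dock2* (0.833). With a pseudocount of 1 the first gene stayed for 4 members, *Cd86*, *Cd83*, *Lag3* and *Vsir*.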

How the data were processed

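Live CD45+ midbrain cells were profiled with the 10x 3′ kit (version 3.1) in 4 libraries, 1 per condition. Per the file headers, the authors obtained the deposited UMI counts with Cell Ranger 7.0.1, while the methods of the study name another release. Reads had been mapped to mm10. Barcodes were kept at 500 to 15000 counts and 250 to 5000 genes, if no more than 10% of counts were mitochondrial.

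Classes other than MG needed 3 distinct markers and MG markers under 0.8% of UMIs. MG needed at least 0.8%, and MG with 3 distinct markers of another class at 0.1% or more of UMIs were set aside as mixed. These limits were set after the data were seen, and the members, lists and tests were chosen with earlier results of these data known. Scrublet (scanpy 1.11.5) found almost no doublets at its own threshold, so doublets were kept, and leaving out the top 10% of scores was an alternative. HTODemux (Seurat 5.3.0) assigned the hashtags and gave 1314 to 5782 cells per hashtag, with no hashtag in 35.2% of PFF + VH cells and 6.4% of PFF + AZD1480 cells. It called 11.6% of PFF + VH cells and 13.5% of PFF + AZD1480 cells as carrying more than 1 hashtag. Such cells, possible doublets, entered no hashtag sum but stayed in the levels, shares and depth bins of the libraries. That a hashtag is a replicate is an assumption, and p-values measure the spread between these pooled samples within a library, not that between libraries. No hashtag data that would separate the 3 replicates each of PBS and monomer were analysed here, and these libraries entered no test.

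UMIs were summed per class and hashtag with at least 10 cells and tested with edgeR 4.0.16 (TMM, filterByExpr, Benjamini-Hochberg adjustment, threshold 0.05) in R 4.3.3. The SE given with a log2 difference was derived from the test, as its absolute value divided by the square root of the F statistic. Class comparisons had the hashtag as a replicate block, since both classes come from the same pool. In data simulated with 200 genes changed 2-fold, the test recovered 86.5% in MG and 48.5% in macrophages, and 7.98% and 3% of its calls were false. The simulated counts held no effect of library, and the members called in MG between AZD1480 and VH differed by less than 2-fold. These rates therefore do not carry over to those calls. Thinned shares rest on 1000 UMIs per cell, and intervals are exact and cover counting error only. Genes outside the members were named by a rule, which took from the pathway list at most 5 called genes per comparison by the size of the log2 difference, and from the correlations the 3 highest. Alternatives were other hashtag calls (values centred within cells, MULTIseqDemux), 1000 or 2000 counts per cell, 1 more marker, RLE scaling, DESeq2 1.42.0, no low-count filter, genes overlapping rRNA left out, each hashtag left out, strata of counts per cell and thinned sums. Clusters of the study were not used here.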

Additional observations from a re-analysis of the deposited data

Results flagged for a closer look

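One value stood apart from its group. *Icosl*, the ICOS ligand gene, had 66.9 CPM in the macrophages of hashtag 2 of PFF + AZD1480, while the other 4 hashtags had 35.8 to 44.4 CPM, and its gap to the nearest was 0.722 of the range of the 5. The gene was below the filter on low counts between AZD1480 and VH in macrophages and was not tested in that comparison. Of 40 groups examined in this way, chance flags about 1 in 20.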

How the results depend on the processing

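Over the results given for the 10 genes, apart from *Cd274* in B-cells against MG, 869 of 1012 alternative values kept direction and side of the threshold. Of the others, 60 fell below it, 20 came above it, 25 turned direction and 38 moved. Of the 38, 32 were the shares of MG with a UMI, all of which moved when cells were thinned to 2000 UMIs or not thinned. The lower depth of PFF + VH cells and the few macrophages and lymphocytes limit the tests. Between AZD1480 and VH in MG, the 3521 genes called became 483, 1007, 2193 and 807 in the strata from 1000, 2000, 4000 and 8000 counts per cell, where fewer cells enter. Direction turned in these strata for *Cd83* (-0.10 and -0.52 in the 2 shallower), *Cd86* (-0.015 and -0.35), *Vsir* (-0.047 in the first), *Cd80* (-0.36 in the second), *Cd40* (-0.45 in the third), *Havcr2* (0.064 in the third) and *Cd274* (0.18 in the fourth). *Icosl*, near 0, turned to -0.078 with MULTIseqDemux, -0.24 in the second stratum, -0.0075 without doublets and -0.027 with the replicate block, and ranged from -0.021 to 0.077 when 1 hashtag was left out. In macrophages against MG, *Icosl* turned to -0.41 with 1 more marker, -0.044 without doublets, -0.014 in PFF + AZD1480 hashtags only and -0.12 with no filter on low counts, and ranged from -0.071 to 0.035 with 1 hashtag left out. *Pdcd1* in T-cells ranged from -0.42 to 1.04 with 1 hashtag left out. The 5 genes called between AZD1480 and VH in macrophages became 3 with MULTIseqDemux, 84 with no filter, 19 with DESeq2 and 3 to 13 with 1 hashtag left out. The 2722 called in NK cells became 328 with MULTIseqDemux and 1803 to 2362 with 1 hashtag left out, and the 1423 in B-cells 771, 15 with 1 more marker and 16 to 1013. The 59 of the treatment by class term became 28 with DESeq2. Same-numbered hashtags of the PFF libraries did not deviate together over the genes tested (r = 0.028, 0.012, -0.030 and 0.064). Their numbers were taken as unpaired, although r over so many genes includes counting noise and cannot exclude a shared origin. With the number as a replicate block in MG *Cd80* alone changed its call (adjusted p = 0.0051). The class comparisons carry the block because both classes of a pair come from 1 pool. Without it, *Pdcd1* (adjusted p = 0.11) and *Cd40* (0.060) in T-cells, *Cd40* in macrophages (0.052) and *Cd80* in NK cells (0.090) fell below the threshold, and *Cd274* (0.044) and *Icosl* (0.044) in NK cells and *Cd40* in B-cells (0.020) came above it. The causes were not tested.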
